A study of Mus musculus with 4 samples.

Results

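Naive-state transcription factors are regulators that hold mouse embryonic stem cells (ESCs) in a state resembling the preimplantation epiblast. A list of 10 genes was examined, 9 of them transcription factors (Klf2, Klf4, Klf5, Esrrb, Tbx3, Tfcp2l1, Nr0b1, Nr5a2 and Prdm14) and the other Tcl1, a cofactor of the kinase AKT. Genes were found through the RefSeq accession of each array probe, which gave 12 probes for 9 of the 10 genes. Klf2 had 2 probes, Tfcp2l1 had 3 and the others had 1 each, out of 21639 genes and transcripts tested in all. Prdm14 had no probe with a matching accession and is not analysed here.

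Total RNA was taken from 4 ESC lines after 3 days on gelatin in medium with LIF and 15% fetal calf serum and hybridised to Agilent whole-mouse-genome arrays in the Cy3 format, with 1 array per line. Wild-type (WT) lines carried the genotype 15-1+/+, 15-2+/+, and knockout (KO) lines 15-1CT/CT, 15-2-/-, where 15-2 is ECAT15-2 (Dppa2), 15-1 is ECAT15-1 (Dppa4) and CT is a conditional targeted allele. The KO lines therefore differ from the WT lines at both neighbouring genes. WT 1 and KO 1 came from blastocysts of mother 1046 and WT 2 and KO 2 from blastocysts of mother 875, on a mixed background of 129Sv, C57/BL6 and Cre or FLPe transgenic mice of unknown strain. Each line is a separate derivation, so the spread within a genotype is that of 2 lines. Levels are given as log2 signal, the background-subtracted intensity of a probe after each array was shifted to a common 75th percentile, and a gene counts as called at a limma p under 0.05 after adjustment over all features. Levels of different probes are not compared with each other.

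In ESCs the LIF receptor activates STAT3, which raises Klf4 and Tfcp2l1, while beta-catenin relieves Esrrb, Klf2 and Tfcp2l1 of repression by the TCF factor Tcf7l1. These factors bind each other's regulatory regions together with Pou5f1, Sox2 and Nanog, and they can partly stand in for one another. FGF and ERK signalling acts against them and accompanies the passage to the primed epiblast, in which most of them are switched off.

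All 9 measured genes had a higher mean in the KO lines than in the WT lines, and for each of them both KO lines lay above both WT lines. Klf2 did so by a margin so small that its sign turned under quantile scaling (log2 difference -0.074), under normexp background correction with quantiles (-0.090) and in the deposited values (-0.074). Of all features tested, 59.2% had a higher mean in the KO lines, 37.7% had both KO lines above both WT lines and 24.5% had both below. Nr0b1 and Klf4 had the widest differences, 3.81-fold and 3.80-fold, followed by Esrrb at 2.94-fold, Tbx3 at 2.84-fold, Tfcp2l1 at 2.505-fold, Tcl1 at 2.40-fold, Nr5a2 at 2.33-fold and Klf5 at 1.65-fold, while Klf2 was at 1.06-fold. The median log2 difference was 1.32, against 0.10 over all features tested.

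None of the 9 passed the test over all genes: limma adjusted p lay between 0.0645 for Nr0b1 and 0.707 for Klf2, and 0.176% of all features were called higher and 1.67% lower (1.84% in either direction). At an unadjusted limma p under 0.05, 6 of the 9 were higher (Nr0b1, Tfcp2l1, Esrrb, Klf4, Tbx3 and Klf5), as were 11.1% of all features, and 0 of the 9 were lower, as were 12.4% of all features. A t statistic without moderation called 0 of 9 after adjustment. It called 0 of all 21639 features, so it cannot tell these genes from the rest. Within both pairs of lines from the same mother, 5 of 9 were at least 2-fold higher in the KO line (Klf4, Esrrb, Tbx3, Tfcp2l1 and Nr0b1), against 1.56% of all features, and 0 of 9 were at least 2-fold lower in both, against 6.94%. The first number was 4 under quantile scaling, normexp with quantiles and the deposited values. With 2 lines against 2, an exact permutation test of a single gene cannot go below a two-sided p of 0.333.

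**Figure D1:**
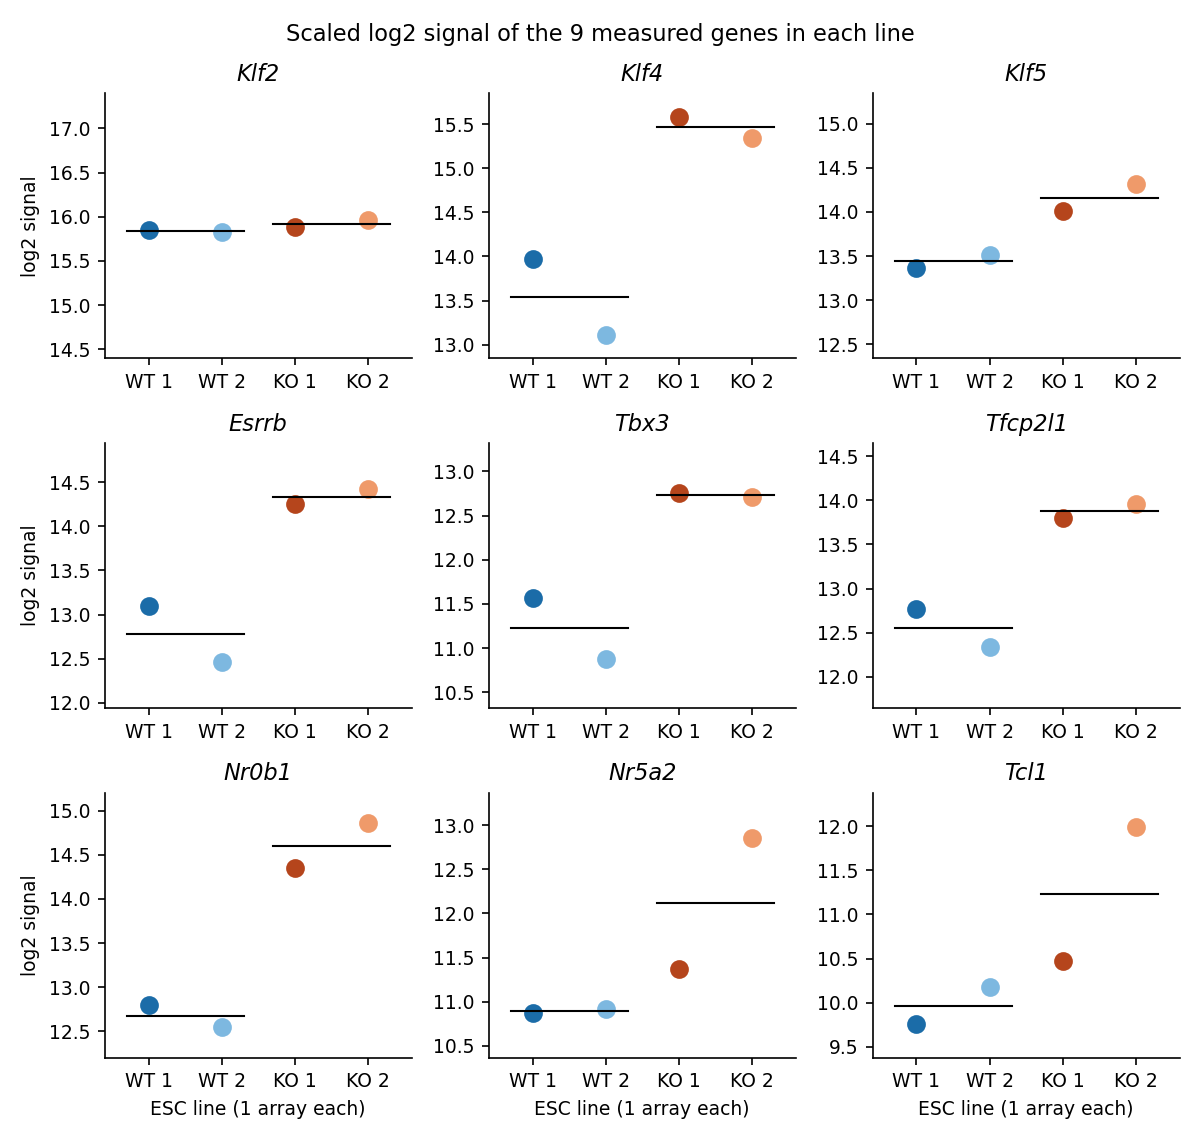
Scaled log2 signal (vertical axis, each panel spanning 3 log2 units) of the 9 measured genes in the 4 lines (horizontal axis, 1 point per line and array, black bars at the mean of 2 lines). Both KO points lie above both WT points in every panel on this scaling, by 1.54 for Nr0b1 and by 0.027 for Klf2, whose sign turns to -0.074 under quantile scaling.

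All 4 arrays lay on 1 slide, with 28150 to 28931 of 41174 probes (68.4% to 70.3%) well above background and 0 saturated spots. All 12 probes of the 9 genes were well above background on all 4 arrays. Repeated spots of bright probes differed within an array by a median SD of 0.044 to 0.051 on the log2 scale. Dppa2, the deleted gene, measured 12.09 and 12.03 in WT but 7.05 and 7.12 in KO lines on the log2 scale (limma adjusted p = 0.00890; 0.0790 with the mother as a block). Dppa4 had 13.37 and 13.54 in WT and 13.95 and 14.07 in KO lines, with an adjusted p of 0.154 by limma. The position of these probes relative to the altered part of each gene is unknown here.

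Under every setting tried, 8 of the 9 genes had a higher mean in the KO lines, though none passed the test in the main model. The 250 bases before the start sites of the genes were therefore read from RefSeq (GRCm38.p6). This gave 9 windows for 7 genes, Esrrb and Nr5a2 having 2 each. The letters searched, on both strands, were TTCNNNGAA (the STAT site), AAGGTCA (the site of Esrrb and Nr5a2), ATGCAAAT (the octamer), GGGCGGG (the GC box, bound by Klf and Sp factors), CCACACCC (the CACCC box) and AGGTGTGA (the T-box site). The windows below are shown because they carry the matches of the best-separated Klf gene, of Esrrb and of Tcl1, with Nr0b1 as the gene with the smallest p, 5′ to 3′ on the gene's strand and with matches in capitals.
Klf4, chr4:55532476-55532725, minus strand: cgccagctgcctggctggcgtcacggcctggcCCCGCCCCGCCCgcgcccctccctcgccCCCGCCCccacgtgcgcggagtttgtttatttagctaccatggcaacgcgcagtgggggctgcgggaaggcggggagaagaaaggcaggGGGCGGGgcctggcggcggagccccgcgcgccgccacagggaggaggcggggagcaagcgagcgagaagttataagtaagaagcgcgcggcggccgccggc
Esrrb, chr12:86360867-86361116, plus strand: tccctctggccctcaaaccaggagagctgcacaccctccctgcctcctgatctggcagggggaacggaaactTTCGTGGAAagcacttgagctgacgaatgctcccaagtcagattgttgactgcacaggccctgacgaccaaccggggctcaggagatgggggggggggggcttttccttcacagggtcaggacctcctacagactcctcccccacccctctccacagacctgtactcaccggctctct
Tcl1, chr12:105222738-105222987, minus strand: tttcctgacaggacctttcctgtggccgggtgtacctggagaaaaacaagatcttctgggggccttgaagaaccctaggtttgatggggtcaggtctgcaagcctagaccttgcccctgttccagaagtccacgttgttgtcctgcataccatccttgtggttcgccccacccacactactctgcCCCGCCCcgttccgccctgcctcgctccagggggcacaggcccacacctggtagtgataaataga
Nr0b1, chrX:86191525-86191774, plus strand: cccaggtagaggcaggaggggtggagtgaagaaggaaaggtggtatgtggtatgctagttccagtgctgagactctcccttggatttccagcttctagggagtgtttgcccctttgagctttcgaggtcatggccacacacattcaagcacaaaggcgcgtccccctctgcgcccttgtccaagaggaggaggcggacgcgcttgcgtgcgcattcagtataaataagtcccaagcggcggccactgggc

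GC boxes stood in 3 of the 9 windows, those of Klf4 (4 matches, of which 2 overlap), Klf2 (2 matches) and Tcl1 (1 match), against 23.4% of all 32851 windows of the table. The STAT site stood in 1 window, that of Esrrb, where it begins at position -178 counted from the start, against 7.02% of all windows. The other 4 motifs had 0 matches in the 9 windows, including that of Nr0b1, and stood in 1.12% to 4.08% of all windows. The Klf4 and Klf2 windows were 74.0% and 71.2% G or C, against a median of 52.4% over the table. These matches describe letters and no binding was measured here.

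The Krüppel-like factors are zinc-finger proteins that bind GC-rich boxes, and the 3 measured here differed among themselves. Klf4, which LIF and STAT3 raise, measured 13.97 and 13.11 log2 signal in WT 1 and WT 2 and 15.58 and 15.35 in KO 1 and KO 2. The lower KO line exceeded the higher WT line by 1.38, and the WT lines were farther apart than the KO lines. The log2 difference was 1.92 (SE 0.35, n = 2 per group, limma adjusted p = 0.101). The lines of mother 1046 differed by 1.61 and those of mother 875 by 2.24.

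Klf5, the Krüppel-like factor that also serves the trophectoderm, measured 13.36 and 13.51 in the WT lines and 14.01 and 14.32 in the KO lines. Its 2 pairs differed by similar amounts, 0.64 and 0.81. The mean log2 difference was 0.72 (SE 0.17, n = 2 per group, limma adjusted p = 0.141). Of all features, 7.48% had a difference at least as high.

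Klf2, a target of several pluripotency factors, was read by 2 probes that disagreed in size. The brighter gave 15.85 and 15.83 in the WT lines and 15.88 and 15.96 in the KO lines, a log2 difference of 0.078 (SE 0.12, n = 2 per group, limma adjusted p = 0.707). The gap between its lowest KO and highest WT line, 0.027, was smaller than the SD between repeated spots of 1 array. Its dimmer probe gave 14.94 and 14.91 in the WT lines and 15.10 and 15.78 in the KO lines, a log2 difference of 0.52 (SE 0.28, n = 2 per group, limma adjusted p over all probes = 0.332). On that probe KO 2 stood above the other 3 lines and KO 1 was 0.16 above WT 1.

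Esrrb and Nr5a2 are orphan nuclear receptors that read a similar DNA half-site, and both can replace exogenous factors in reprogramming. Esrrb measured 13.10 and 12.46 in the WT lines and 14.25 and 14.42 in the KO lines. The KO lines lay close together, with WT 2 the lowest of the 4. The log2 difference was 1.56 (SE 0.27, n = 2 per group, limma adjusted p = 0.0971). Within the pairs it was 1.15 and 1.96.

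Nr5a2 was the least even of the transcription factors over the KO lines. It measured 10.87 and 10.91 in the WT lines, 11.37 in KO 1 and 12.85 in KO 2. The WT lines were within 0.040 of each other, while KO 2 exceeded KO 1 by 1.48, which is more than the difference between the group means of 1.22 (SE 0.56, n = 2 per group, limma adjusted p = 0.281). Without KO 2 the difference was 0.48, and without KO 1 it was 1.96, which then passed the test. In that fit KO 2 stood alone in its group, so the variance came from the 2 WT lines, moderated over all features. The spread between KO lines was not measured there for Nr5a2. Over 16 alternatives its limma adjusted p ranged from 0.0478 to 0.573. Over all features, 3.23% were at least 2-fold higher in KO 2 than in KO 1.

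Nr0b1 (Dax1), an X-linked nuclear receptor without the usual DNA-binding domain that interacts with other pluripotency factors, measured 12.80 and 12.54 in the WT lines and 14.35 and 14.86 in the KO lines. Its groups were the farthest apart of the 9 genes, with 1.54 between the higher WT and the lower KO line. The log2 difference was 1.93 (SE 0.24, n = 2 per group, limma adjusted p = 0.0645). The pairs gave 1.54 and 2.31. It passed the test under normexp with the 75th percentile (limma adjusted p = 0.0354) and with an intensity trend and robust prior (0.0419), within a range of 0.0354 to 0.290 over 16 alternatives.

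Tbx3, a T-box factor of naive ESCs, measured 11.57 and 10.88 in the WT lines and 12.76 and 12.71 in the KO lines. The KO lines differed by 0.054, about the SD between repeated spots, whereas WT 2 was 0.69 below WT 1. Its log2 difference was 1.51 (SE 0.28, n = 2 per group, limma adjusted p = 0.104).

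Tfcp2l1, a grainyhead-related factor downstream of STAT3 and beta-catenin, was read by 3 probes, all higher in both KO lines than in both WT lines. The brightest measured 12.77 and 12.34 in the WT lines and 13.80 and 13.96 in the KO lines, a log2 difference of 1.32 (SE 0.21, n = 2 per group, limma adjusted p = 0.0859). The dimmer probes gave log2 differences of 1.77 (7.15 and 7.28 in WT, 8.56 and 9.41 in KO lines) and 0.78 (6.97 and 6.52 in WT, 7.65 and 7.41 in KO lines). The 3 probes therefore shared the direction and the absence of overlap, but their sizes ranged from 1.72-fold to 3.42-fold.

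Tcl1, which binds AKT and promotes its activity and is not a transcription factor, measured 9.76 and 10.18 in the WT lines, 10.47 in KO 1 and 11.995 in KO 2. As for Nr5a2, KO 2 stood apart, 1.52 above KO 1, and KO 1 was 0.29 above the higher WT line. The log2 difference was 1.27 (SE 0.59, n = 2 per group, limma adjusted p = 0.289). It was 0.50 without KO 2 and 2.03 without KO 1, neither of which passed the test.

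**Figure D2:**
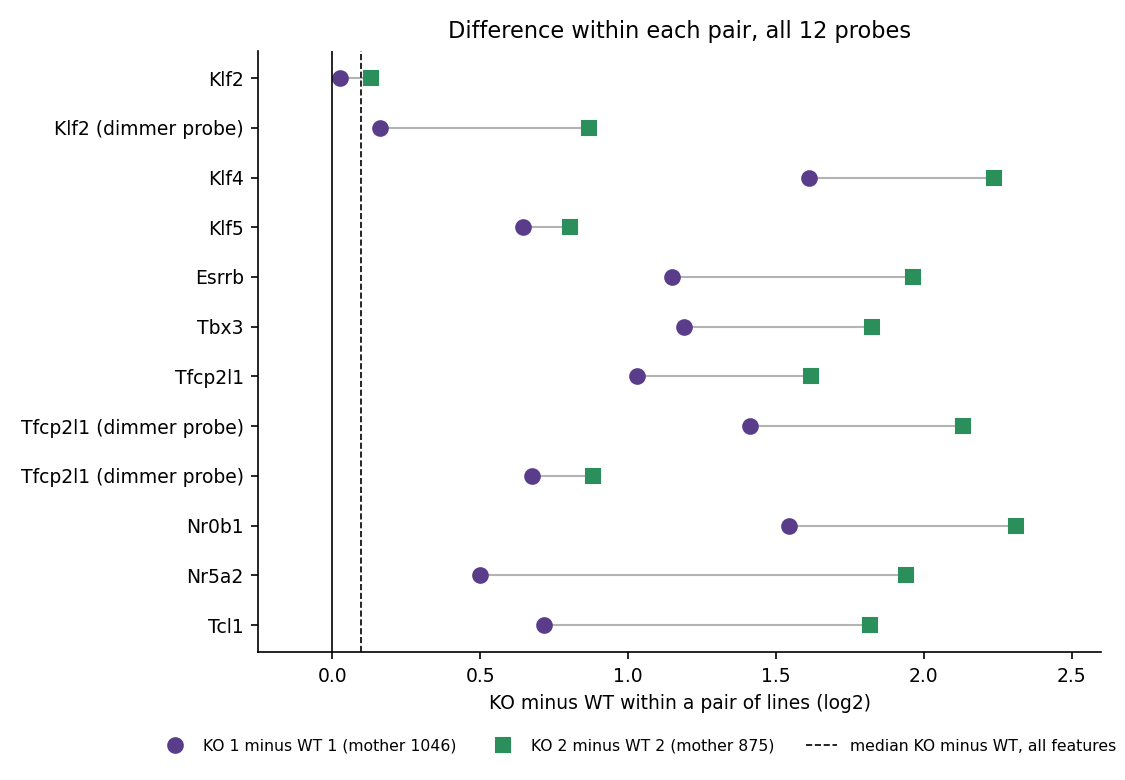
Log2 difference between the KO and the WT line of the same mother (horizontal axis) for each of the 12 probes (rows), with circles for mother 1046, squares for mother 875 and a dashed line at the median KO minus WT difference of all features, 0.10. For each probe the square lies to the right of the circle, least for the bright Klf2 probe (0.027 and 0.13), whose difference turns negative under quantile scaling, and most for Nr5a2 (0.50 and 1.94).

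Within the pairs, the lines of mother 875 differed more than those of mother 1046 for all 9 genes, Klf2 included on this scaling, with medians of 1.83 and 1.03. Over all features this held for 49.9%. With 1 line of each genotype per mother, this contrast has no test. KO 2 held the highest value of the 4 lines for 7 of 9 genes, against 38.1% of all features, and KO 1 for Klf4 and Tbx3. The genes reached it along different routes. For Klf4, Esrrb, Tbx3 and Tfcp2l1 the WT lines differed more (WT 2 below WT 1 by 0.43 to 0.86), and KO 2 minus KO 1 lay between -0.23 and 0.17. None of the 9 had WT 2 at least 2-fold below WT 1 (3.13% of all features), and none was at least 2-fold higher in the line of mother 875 in both genotypes (0.374%). Nr5a2 and Tcl1 had WT 2 above WT 1 by 0.040 and 0.42 and KO 2 above KO 1 by 1.48 and 1.52. In 6 of 9 genes (Klf4, Klf5, Esrrb, Tbx3, Tfcp2l1 and Nr0b1) the difference between genotypes was larger than both differences between lines of the same genotype, as it was for 48.8% of all features.

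Markers of other cell types were read in the same libraries, as summed unlogged signal over each list. The ESC label is borne out by Pou5f1, Sox2, Zfp42, Utf1, Dppa5a and Tdgf1, the 6 of 8 listed ESC markers with a matched probe, which were well above background on all 4 arrays and summed to 450153 and 450599 in WT and 534250 and 643442 in KO lines. Trophoblast markers (7 of 8 matched) summed to 20380 and 26104 in WT and 14334 and 13584 in KO lines. Early mesoderm markers (8 of 8) summed to 3858 and 1893 in WT and 798 and 358 in KO lines, with T, the brachyury gene, at 11.54, 10.42, 8.01 and 5.01 log2 signal in WT 1, WT 2, KO 1 and KO 2. Primitive endoderm markers (10 of 10, Ttr not above background on any array) summed to 7046 and 8207 in WT and 3938 and 2495 in KO lines, and neural markers (7 of 8) to 15956 and 20754 in WT and 14059 and 9847 in KO lines.

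These sums were lower in both KO lines than in both WT lines for trophoblast, mesoderm, endoderm and neural markers. The lists were not uniform, however, and a sum follows its brightest genes. In the KO lines the brightest trophoblast marker was Tfap2c, the 1 with a positive difference (13.11 and 13.05 in WT, 13.61 and 13.45 in KO lines). Dppa5a was the brightest ESC marker on all 4 arrays. Of the tested markers 1 of 6 for trophoblast and 3 of 8 for mesoderm had a positive difference, with medians of -2.27 and -0.35. For endoderm and neural ectoderm the majority went against the sum: 6 of 9 and 4 of 6 were positive, with medians of 0.53 and 0.18, and over the 5 other scalings the endoderm median ranged from 0.027 to 0.77 (scalings applied to these markers after seeing the data). The collagen gene Col4a1, the brightest endoderm marker, measured 12.39 and 12.60 in WT and 10.65 and 9.97 in KO lines, and the neural progenitor gene Nes measured 13.08 and 13.85 in WT and 11.90 and 10.93 in KO lines. Of these markers limma called 1 endoderm gene, Dab2 (9.39 and 9.30 in WT, 7.48 and 7.71 in KO lines, limma adjusted p = 0.0381), and 1 mesoderm gene, Mesp2 (6.87 and 6.94 in WT, 4.13 and 4.06 in KO lines, limma adjusted p = 0.0173), both lower. With the mother as a block their limma adjusted p was 0.102 and 0.0815. Of all features, 1.67% were called lower and 59.2% had a positive difference. Among the positive endoderm markers, the factor gene Sox17 measured 6.29 and 6.22 in WT and 8.33 and 7.01 in KO lines. Fibroblast or feeder markers (10 of 10) summed to 36956 and 10176 in WT and 18872 and 27519 in KO lines, so these groups overlapped. The part of these marker levels in the differences of the naive-state genes was not tested. In such bulk RNA, more cells in the naive state and more RNA of these genes per cell cannot be told apart.

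The genes around the naive factors were counted in lists by pathway. Shares over all features are given first, for comparison with each list below. Of all features, 1.84% were called by limma and 59.2% had a positive difference, while 11.1% were higher and 12.4% lower at an unadjusted limma p under 0.05. Of 18 tested ESC and pluripotency genes outside the 10, 0 passed the test by limma and 17 had a positive difference, with a median of 0.53. At an unadjusted limma p under 0.05, 8 were higher and 0 lower. Those with the smallest p were Eras, a constitutively active Ras-like gene of ESCs, with a log2 difference of 1.30 (11.26 and 10.99 in WT, 12.41 and 12.43 in KO lines), Sox2, the partner of Pou5f1, with 0.85, and the chromatin-associated factor gene Utf1 with 0.73.

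In the LIF and STAT3 pathway, which feeds Klf4 and Tfcp2l1, 0 of 9 tested genes passed by limma (4 higher and 1 lower at an unadjusted p under 0.05). The median was 0.47, and 5 of 9 had a positive difference. Socs3, the feedback inhibitor that STAT3 induces, measured 14.10 and 13.93 in the WT lines and 15.33 and 14.77 in the KO lines, a log2 difference of 1.04. The kinase gene Pim3 had a log2 difference of 0.82, whereas the kinase gene Pim1 had -0.28 (limma adjusted p = 0.515). The receptor-bound kinase gene Jak2 was also lower in the KO lines, with 9.92 and 9.24 in WT and 8.32 and 7.63 in KO lines, a log2 difference of -1.61. By limma the adjusted p of Pim3 was 0.0831, that of Jak2 0.137 and that of Socs3 0.138.

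Of 10 beta-catenin and TCF genes, 0 passed by limma (0 higher and 1 lower at an unadjusted p under 0.05). The median was -0.11, and 5 of 10 had a positive difference. Lef1, a TCF factor that beta-catenin activates, measured 10.39 and 9.79 in WT and 8.19 and 8.19 in KO lines, a log2 difference of -1.90 (limma adjusted p = 0.0698). Of the other TCF factor genes, Tcf7l2 had a log2 difference of -0.69, Tcf7 of -0.27 and the repressor gene Tcf7l1 of 0.15, and the feedback gene Axin2 had -1.02. Of 14 FGF and ERK genes, 0 passed (2 higher and 1 lower at an unadjusted limma p under 0.05). The median was 0.16, and 9 of 14 had a positive difference. The ERK-induced ETS factor genes Etv4 and Etv5 had log2 differences of 1.45 and 0.46, whereas the receptor gene Fgfr1 had -1.02.

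In the pathway that Tcl1 acts on, 0 of 14 PI3K and AKT genes passed by limma (0 higher and 2 lower at an unadjusted p under 0.05). The median was -0.10, and 3 of 14 had a positive difference, against 59.2% of all features. Akt1, a kinase gene whose product Tcl1 can bind, measured 13.68 and 13.69 in WT and 13.16 and 13.00 in KO lines, a log2 difference of -0.60 with an adjusted p of 0.129 by limma. The growth-control kinase gene Mtor had a log2 difference of 0.34.

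Relatives of the 9 genes were measured for comparison. Of 29 tested paralogues, 0 passed by limma and 17 had a positive difference (59.2% of all features). At an unadjusted limma p under 0.05, 4 were higher and 2 lower, against 11.1% and 12.4% of all features. Their median was 0.13, close to the 0.10 of all features. Within the Krüppel-like family, Klf15 had a log2 difference of 1.79 (8.73 and 9.29 in WT, 10.92 and 10.67 in KO lines) and Klf9 of 0.90, whereas Klf7 had -0.83. Limma adjusted p was 0.0765, 0.0801 and 0.154 for these 3 genes.

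Of 14 tested primed epiblast genes, 1 was called by limma, and it was lower (1.67% of all features were called lower). A positive difference was seen for 1 of 14, Dnmt3a, a DNA methyltransferase gene, at 0.30, against 59.2% of all features, and the median was -1.10. The list was uneven. Dnmt3b had a log2 difference of -0.051, Pou3f1 of -0.28, Zic5 of -0.28 and Zic2 of -0.43. Within both pairs 5 of 14 genes were at least 2-fold lower in the KO line, against 6.94% of all features. T, Eomes and Foxa2 of this list also stand in the mesoderm, trophoblast and endoderm marker lists. Sox4, a factor of differentiating cells, fell 2.92-fold, from 9.87 and 10.003 to 8.41 and 8.37 (limma adjusted p = 0.0371; 0.100 with the mother as a block). Without WT 1, WT 2, KO 1 or KO 2 in turn, the limma adjusted p of Sox4 was 0.216, 0.244, 0.0586 and 0.105, and over 16 alternatives it ranged from 0.0325 to 0.244. The growth factor gene Fgf5, the usual marker of the primed state, measured 11.45 and 11.94 in WT and 8.75 and 7.84 in KO lines, a log2 difference of -3.40 (limma adjusted p = 0.0584). The epithelial keratin gene Krt18 differed by -2.16 on that scale, with an adjusted p of 0.0655 by limma.

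**Figure D3:**
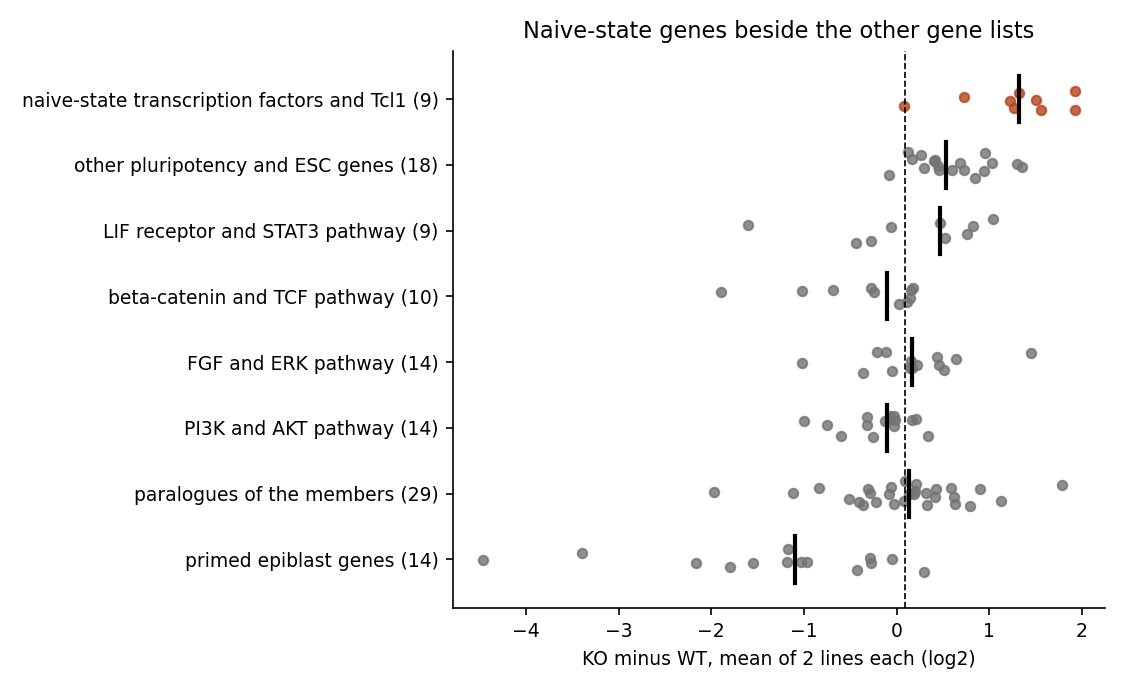
Log2 difference between the means of 2 KO and 2 WT lines (horizontal axis) for the tested genes of each list (rows, number of genes in brackets; vertical scatter within a row has no meaning), with list medians as black bars and the median of all features, 0.10, as a dashed line. The naive-state genes have a median of 1.32, the paralogues 0.13 and the primed epiblast genes -1.10.

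The pattern of the 9 genes over the 4 lines was summarised as the median of their values after each was centred on its own mean. Tfcp2l1 was closest to it, with a root mean square distance of 0.047 on the log2 scale, and Klf2 the farthest, with 0.67. Of 14372 genes with a symbol, the closest outside the list were Tm4sf5 (a tetraspanin-like membrane protein gene, 0.025), Zmym3 (a zinc-finger gene, 0.045) and Cyp2s1 (a cytochrome P450 gene, 0.051). Tm4sf5 measured 9.32 and 8.86 in WT and 10.31 and 10.63 in KO lines. With 4 lines such a ranking is a description only.

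**Figure D4:**
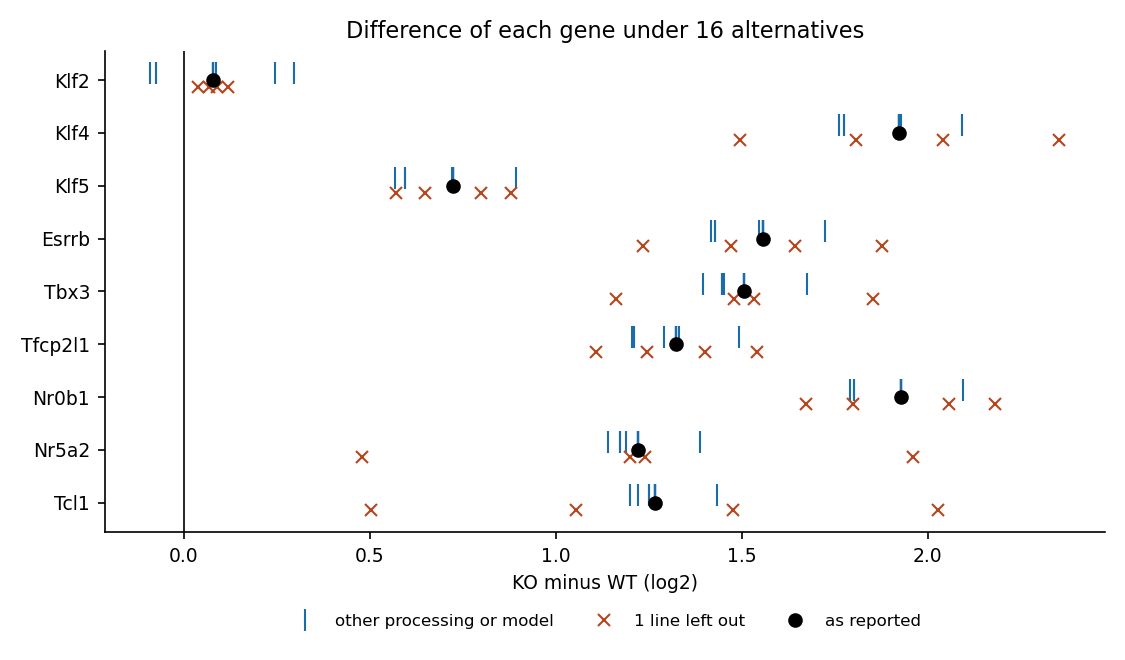
Log2 difference between KO and WT lines (horizontal axis) of the 9 genes (rows) as reported (black dots), under 12 other processing or model settings (bars) and with 1 of the 4 lines left out (crosses). Settings that alter only the test lie under the black dots; 8 of the 9 genes stay above 0 in every setting shown, and Klf2 crosses 0, down to -0.090. The crosses spread most for Nr5a2 (0.48 to 1.96) and Tcl1 (0.50 to 2.03).

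Over 16 alternatives the log2 difference stayed above 0 for 8 of the 9 genes, Klf2 being the exception. It ranged from 1.49 to 2.35 for Klf4, 1.67 to 2.18 for Nr0b1, 1.23 to 1.88 for Esrrb, 1.16 to 1.85 for Tbx3, 1.11 to 1.54 for Tfcp2l1 and 0.57 to 0.89 for Klf5. The widest ranges belonged to Nr5a2 and Tcl1, and leaving out KO 2 set the lower end of each.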

How the data were processed

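The intensity values were extracted with Agilent Feature Extraction 10.7.3.1, which subtracted background and detrended each array without scaling between arrays, per the file headers. A table of log2 values was also deposited; its 4 columns share a median of 6.55 and correlate with log2 of the processed intensity at 0.999902 to 0.999988, so it is read as quantile-normalized and not centred per gene, with GeneSpring GX11 named in the series' design text.

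Here log2 of the processed intensity was shifted to a common 75th percentile (mean of the 4 arrays retained). Control and outlier-flagged spots were dropped and spots of a probe averaged, and 233 probes flagged on every spot of an array were left out. Of 41174 probes, 26690 matched 1 symbol by accession in the RefSeq table (GRCm38.p6); the arrays were annotated on mm9, so no probe coordinates are given. Probes had to be well above background on both arrays of a group, and the brightest stood for its gene, which left 21639 features. The genotype effect was fitted across all features by lmFit and eBayes (limma 3.58.1, R 4.3.3), with Benjamini-Hochberg adjustment and a threshold of 0.05; SE is limma's moderated standard error. The procedure was tested on simulated data. Equal replicate numbers mark a shared mother, per the labels; deviations of such lines from their group means correlated at 0.19 across genes, and the mother was fitted as a block beside the main model. The normexp alternative used the median spot signal and an offset of 50, as the files used here hold no mean spot signal. The genes and lists were chosen with earlier results of these data known. Genes named beside the 10 are Dppa2, Dppa4, the 3 of each list with the smallest p (1 of them is not reported here) and the 3 nearest patterns; T, Sox17, Dab2, Mesp2, Col4a1, Nes, Dnmt3a, Tcf7, Tcf7l1 and the ESC markers Pou5f1, Zfp42, Dppa5a and Tdgf1 were named after their values were seen, as were Zfp42 and Klf3 in the closing section. Array number limits the precision, and 2 lines per genotype measure only the spread between these lines.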

Additional observations from a re-analysis of the deposited data

How the results depend on the processing

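The 16 alternatives moved the median of the naive-state genes between 1.20 and 1.64, and 1 of 9 genes was called under normexp with the 75th percentile and with an intensity trend and robust prior (Nr0b1 in both), against 0 as reported. The median over all features was 0.26 under median centring and 0.10 as reported; relative to it, the naive-state median was 1.23 in both. Klf2 reversed to -0.074 (quantile scaling), -0.090 (normexp with quantiles) and -0.074 (deposited values); the cause was not tested.

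With the mother as a replicate block, the calls over all genes fell from 361 lower and 38 higher to 0 and 0, and of the primed epiblast genes 0 were called, Sox4 being lost; Dppa2, Dab2 and Mesp2 lost their calls too, and no other call named in the text changed. Calls over all genes were also 0 lower and 0 higher with genes above background on all 4 arrays and with the unmoderated t statistic, where 0 primed epiblast genes were called. Higher calls numbered 58 under median centring, 69 under normexp with the 75th percentile, 10 with no filter on dim probes (0 primed genes called) and 80 with the intensity trend. With 1 line left out, lower calls ranged from 0 to 679, higher calls from 0 to 64 (both highest without KO 1), naive-state genes called from 0 to 1, primed genes called from 0 to 1 and paralogues called from 0 to 1.

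Calls within lists were as follows, each beside the calls over all 21639 features in the same setting. Median centring called 1 ESC gene (Eras), against 302 lower and 58 higher over all features. Normexp with the 75th percentile called 1 ESC, 1 TCF, 1 FGF and 1 paralogue gene and 3 primed genes. Over all features it called 437 lower and 69 higher. Normexp with quantiles called 2 primed genes, against 292 lower and 48 higher over all features. The intensity trend called 2 ESC, 1 LIF, 1 FGF and 1 paralogue gene and 3 primed genes. Over all features it called 421 lower and 80 higher.

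List medians moved by more than the spread of the 2 pairs as follows. This spread is the SD of a list's medians within the 2 pairs of lines, so it differs between lists. The pair medians were -0.076 and -0.075 for the TCF list but 1.03 and 1.83 for the naive-state genes. A small shift therefore counted for the TCF list, and a much larger one did not for the naive-state genes. Ranges with 1 line left out cover all 4 such fits. For the ESC and LIF lists not all of these fits moved by more than the spread. The ESC median was 0.38 under quantile scaling, normexp with quantiles and the deposited values, 0.70 under median centring, 0.61 with the mean of a gene's probes and 0.44 to 0.57 with 1 line left out. The LIF median was 0.64 under median centring, 0.39 under normexp with quantiles and 0.34 to 0.52 with 1 line left out. The TCF median was -0.14 (quantile scaling), 0.062 (median centring), -0.096 (normexp with the 75th percentile), -0.13 (normexp with quantiles), -0.14 (deposited values), -0.071 (mean of probes) and -0.13 to -0.045 with 1 line left out. The FGF median was 0.075 under quantile scaling, 0.33 under median centring, 0.080 under normexp with quantiles and 0.075 in the deposited values. The PI3K and AKT median was 0.068 under median centring.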

Other observations

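Zfp42 (Rex1), a widely used marker of naive ESCs, differed more between the lines of the 2 mothers than between the genotypes. It measured 13.39 in WT 1 and 13.97 in KO 1, both from mother 1046, and 15.10 in WT 2 and 16.60 in KO 2, both from mother 875. The line of mother 875 was higher by 1.71 in the WT and by 2.63 in the KO genotype, while the difference between genotypes was 1.03, with an adjusted p of 0.600 by limma. Within the pairs the KO line was higher, by 0.57 for mother 1046 and 1.49 for mother 875. With 1 line per mother and genotype, differences between mothers and between lines cannot be told apart. Of all features tested, 0.374% were at least 2-fold higher in the line of mother 875 in both genotypes, and none of the 9 naive-state genes was among them.

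Klf3, a repressor of the Krüppel-like family, had its highest value in KO 2 and both KO lines above both WT lines. So did 7 of the 9 naive-state genes, Nr5a2 and Tcl1 among them. Over all features, 38.1% were highest in KO 2 and 37.7% had both KO lines above both WT lines. Klf3 measured 10.78 and 10.75 in the WT lines, 11.05 in KO 1 and 12.74 in KO 2. Its KO 2 value exceeded that of KO 1 by 1.69, and the difference between genotypes, 1.13, had an adjusted p of 0.345 by limma. Both genes were picked after their values were seen, and no test of these patterns was made.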
